A study of Drosophila melanogaster with 2 samples.

Results

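The genes described here encode 6 proteins of core promoters and of interbands, the open, gene-start-rich stretches of polytene chromosomes. They are Chro, pzg, Dref, M1BP, Trl and Clamp, and they were taken by symbol from 13945 protein-coding genes of the Ensembl BDGP6 annotation. All 6 symbols matched 1 gene each. The question was whether and where the zinc finger protein CG1792 was found at these genes. Chromatin immunoprecipitation with sequencing (ChIP-seq) had been done on the fly strain CG1792-GFP, with Drosophila melanogaster embryos of both sexes, 0 to 24 hours old, taken whole. In that transgenic line GFP is joined to the C-terminus of CG1792, and GFP was the target of the precipitating antibody per the sample description, while the antibody field names CG1792. The samples were 2 libraries, biological replicates 2 and 3, in 1 group, so nothing was compared between conditions. Whole embryos mix all tissues and stages of embryogenesis, so a peak can come from any of their cells.

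In flies, many promoters of broadly active genes carry short sequence elements that are read by dedicated proteins. Dref binds the DNA replication-related element (DRE), M1BP binds motif 1, and Trl, the GAGA factor, and Clamp both bind GA-rich DNA. Chro and pzg (also known as Z4) encode proteins that are found together in interbands. CG1792 belongs to the C2H2 zinc finger proteins with a zinc-finger associated domain. The results below concern binding of CG1792 at the genes of these factors, not binding by the factors.

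The authors' thresholded list held 2892 peaks in dm6, which were the 2892 strongest of 30000 pooled regions. Each replicate list also held 30000 regions. Signal here means the value in the signal column of a peak list. No source used here gives its scale, so lists were compared by rank, with rank 1 the strongest. Over the thresholded peaks the median signal was 101, the lowest 66.97 and the highest 1589. Sequencing depth is unknown, since peak lists carry no counts. A gene was called bound when at least 1 annotated transcript start of it had a thresholded summit no more than 500 bp away.

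All 6 genes were bound by this rule, against 14.2% of all protein-coding genes (1981 of 13945). This count is a description, because the genes were listed with their peaks known. Their strongest start peaks had a median signal of 166, against 105 over all 1981 bound genes, and a median rank of 623 against 1350. The genes differed widely among themselves. Signals ran from 79.9 at Clamp to 892 at Chro, an 11.2-fold range that covers much of the thresholded list. Among bound genes ordered by their strongest start peak, Chro stood 7th, pzg 52nd and Trl 314th. Dref was 646th, M1BP 1424th and Clamp 1512th.

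**Figure D1:**
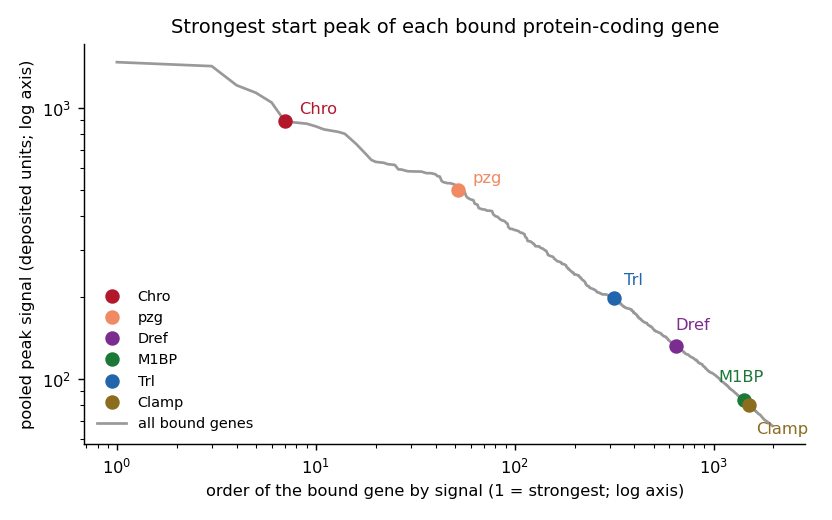
Pooled signal of the strongest start peak (deposited units, log axis) against the order of the gene by that signal (log axis) for the 6 genes, as coloured points, and for all 1981 bound protein-coding genes, as a grey line. Chro (892) and pzg (499) lie in the steep upper part of the curve, and M1BP (83.3) and Clamp (79.9) near its lower end.

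The DNA at the summits is shown here because the peaks at Chro, pzg, Dref and M1BP lay at a start region that these genes share with a divergent neighbour, while the strongest peak of Trl lay in an intron. The bases are dm6, from the RefSeq copy of release 6 of the genome, written 5′ to 3′ on the strand of the named gene. Capitals mark matches, on either strand, to the 20 7-mers with the smallest p among those more frequent at summits than in flanks, from a scan described further below that left out the start peaks of the 6 genes but kept the Trl intron summit. Where a summit lay in a 5′ UTR, the bases nearest to it are given, with the stretch between the starts of the neighbouring genes on a line of its own.
Chro, summit, chr3L:22878875-22878903, minus strand: ttaaaGCTATCGAcaggcaatacactccc
Chro to Ssl1, between starts, chr3L:22878985-22879088, minus strand: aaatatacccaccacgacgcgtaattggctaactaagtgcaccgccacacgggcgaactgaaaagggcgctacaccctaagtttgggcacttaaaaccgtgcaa
pzg, summit, chr3L:21285927-21285955, plus strand: atgaacggcaacgctgtgagattttctct
pzg to CG12974, between starts, chr3L:21285963-21286098, plus strand: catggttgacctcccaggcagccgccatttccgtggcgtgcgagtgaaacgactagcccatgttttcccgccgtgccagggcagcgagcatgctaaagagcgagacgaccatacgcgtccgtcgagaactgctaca
Dref, summit, chr2L:9967203-9967231, minus strand: caatCAGTGTTagcgagaatactcaacaa
Dref to RpL13, between starts, chr2L:9967230-9967312, minus strand: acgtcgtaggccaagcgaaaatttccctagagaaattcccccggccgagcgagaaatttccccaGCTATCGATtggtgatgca
M1BP, summit, chr3R:8731976-8732076, minus strand: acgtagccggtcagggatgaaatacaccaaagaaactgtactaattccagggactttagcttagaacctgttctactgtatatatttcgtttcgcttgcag
Trl, intron summit, chr3L:14759425-14759525, minus strand: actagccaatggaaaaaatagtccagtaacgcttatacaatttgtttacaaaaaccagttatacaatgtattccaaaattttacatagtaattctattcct
Clamp, intron summit, chr2L:22168644-22168704, minus strand: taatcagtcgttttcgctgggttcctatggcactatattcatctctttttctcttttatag

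Of the interband genes, Chro had the strongest peak. Chro (FBgn0044324, 3L, 22873702 to 22878984, minus strand) encodes Chromator, a chromodomain protein that also takes part in the mitotic spindle. Its peak spanned 22878726 to 22879099, with the summit 95 bp inside the gene in the 5′ UTR, downstream of the outermost of 3 annotated starts. That summit lay upstream of the start at 22878768, used by transcripts Chro-RB, Chro-RC and Chro-RD, and Chro-RE alone uses the outermost start. The signal was 892 in the pooled list, at rank 11. It was 443 at rank 12 in replicate 2 and 448 at rank 14 in replicate 3, with the summit at the same base in both. The region thus stood at nearly the same place in the order of each library. The start of Ssl1, which encodes a subunit of the general transcription factor TFIIH, lay 200 bp from this summit on the other strand, and the starts of the gene pair are 105 bp apart. Elsewhere in the body of Chro the pooled list had 3 regions, in coding exons and the 3′ UTR, with signals of 18.2 to 21.4 at ranks of 22596 and beyond, all outside the thresholded list.

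The gene of its partner pzg came next. pzg (FBgn0259785, 3L, 21286099 to 21290310, plus strand) encodes a zinc finger protein that works with the NURF nucleosome remodeller. The peak spanned 21285636 to 21286158 and its summit lay 158 bp upstream of the single start of pzg. Its signal was 499 in the pooled list (rank 57), 261 in replicate 2 (rank 47) and 236 in replicate 3 (rank 71), and the summits of the replicates were 8 bp apart. The nearest start was not that of pzg but that of the divergent gene CG12974, 21 bp away, and the summit was in the 5′ UTR of CG12974. The space between the starts is 137 bp long. In replicate 2 a second and weaker summit stood 48 bp inside pzg (signal 31.1, rank 3259), and replicate 3 had none there.

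Among the factors that read promoter elements, Dref had a peak of middle strength. Dref (FBgn0015664, 2L, 9964147 to 9967229, minus strand) encodes an activator of genes for DNA replication and cell growth. The summit lay 12 bp inside the gene, in the 5′ UTR, and the peak spanned 9967009 to 9967424. The signal was 132 in the pooled list (rank 865), 66.4 in replicate 2 (rank 780) and 66.9 in replicate 3 (rank 1013), with 6 bp between the replicate summits. The start of RpL13, a gene of the large ribosomal subunit, lay 96 bp from the summit on the other strand, and 84 bp separate the starts of the gene pair. No other pooled region lay in the body of Dref.

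M1BP had one of the weaker peaks, and it stood away from its own start. M1BP (FBgn0037621, 3R, 8729790 to 8731698, minus strand) encodes a zinc finger protein of promoters with paused polymerase. The peak spanned 8731818 to 8732233, between genes, with its summit 328 bp upstream of the M1BP start and 65 bp upstream of the start of the divergent gene CG8202. Its signal was 83.3 in the pooled list (rank 1992), 39.5 in replicate 2 (rank 2083) and 42.0 in replicate 3 (rank 2367), and the summits were 9 bp apart. Nearer to M1BP itself, replicate 3 had a weaker region 34 bp upstream of the start (signal 30.1, rank 4214), which had no counterpart in replicate 2 or in the pooled list. The gene body held no region in any of the dm6 lists.

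Clamp had the weakest start peak of the 6. Clamp (FBgn0032979, 2L, 22165720 to 22169143, minus strand) encodes a zinc finger protein of GA repeats that helps to bring the dosage compensation complex to the X chromosome of males. The peak spanned 22168446 to 22168861 and its summit lay 489 bp inside the gene, in an intron and just within the window of 500 bp. Its signal was 79.9 in the pooled list (rank 2144), 28.8 in replicate 2 (rank 3808) and 49.4 in replicate 3 (rank 1749). These summits were 72 bp apart, and that of replicate 3 lay 546 bp from the start, outside the window. With either replicate left out and the 2892 strongest regions of the other taken in place of the thresholded list, Clamp was not called bound, and the other 5 genes were. Upstream of the start a pooled region below the threshold had its summit at −151 bp (signal 38.5, rank 7423), with summits at −229 bp in replicate 2 (signal 28.9, rank 3756) and at −36 bp in replicate 3 (signal 10.3, rank 26171).

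Trl stood apart by the number of its peaks. Trl (FBgn0013263, 3L, 14747929 to 14761049, minus strand) encodes the GAGA factor, which helps to keep promoters free of nucleosomes, and has 4 annotated starts spread over 3713 bp. Its start peak spanned 14757128 to 14757307, with the summit 123 bp downstream of the innermost start. This summit lay in the 5′ UTR of both Trl and the overlapping protein-coding gene CG42507. The signal was 199 in the pooled list (rank 381), 100.2 in replicate 2 (rank 324) and 111 in replicate 3 (rank 366). There the summits of the libraries were 95 bp apart, on either side of the pooled summit. This was not the strongest summit of Trl.

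The strongest summit of Trl lay in an intron, 1513 bp upstream of the start used by most of its transcripts. This peak, from 14759320 to 14759722, had a signal of 458 in the pooled list (rank 68), 218 in replicate 2 (rank 70) and 240.1 in replicate 3 (rank 66). It was the 23rd strongest of the 1284 thresholded peaks that lay more than 500 bp from every gene start. The same interval carried a second summit with a signal of 79.1 (rank 2180), at 26.3 in replicate 2 (rank 4684) and 41.4 in replicate 3 (rank 2432). Another intron summit, 616 bp downstream of the outermost start, had a signal of 101 (rank 1430), 54.9 in replicate 2 and 52.1 in replicate 3. The fifth summit lay 1085 bp downstream of the innermost start, in an intron of both Trl and CG42507, with a signal of 76.9 (rank 2287). It ranked 1169 in replicate 2 (signal 53.3) and 5558 in replicate 3 (signal 25.7), so replicate 3 alone would not have placed it among the 2892 strongest. A sixth region, 271 bp upstream of the start of most transcripts, fell below the threshold (signal 57.9, rank 3719).

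Counted over gene bodies, a thresholded summit lay within 4 of the 6 genes, which were Chro, Dref, Trl and Clamp, against 8.90% of all protein-coding genes (1241 of 13945). This count too is a description, since the genes were listed with their peaks known. At Chro, Dref and Clamp the body summit is the start peak already described. The body of Trl held 5 thresholded summits, and 28 of the 13945 genes held 5 or more. Trl is also the longest of the 6 genes, 13.1 kb against 1.91 to 5.28 kb for the others, and longer genes have more room for a summit. The pooled list also holds regions below the threshold. Per kb it had 0.838 regions in Trl, 0.757 in Chro, 0.584 in Clamp, 0.324 in Dref, 0.237 in pzg and 0 in M1BP. The density over all protein-coding genes is not given here, so whether these values are usual cannot be told. They also concern all pooled regions and not the thresholded summits counted above.

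**Figure D2:**
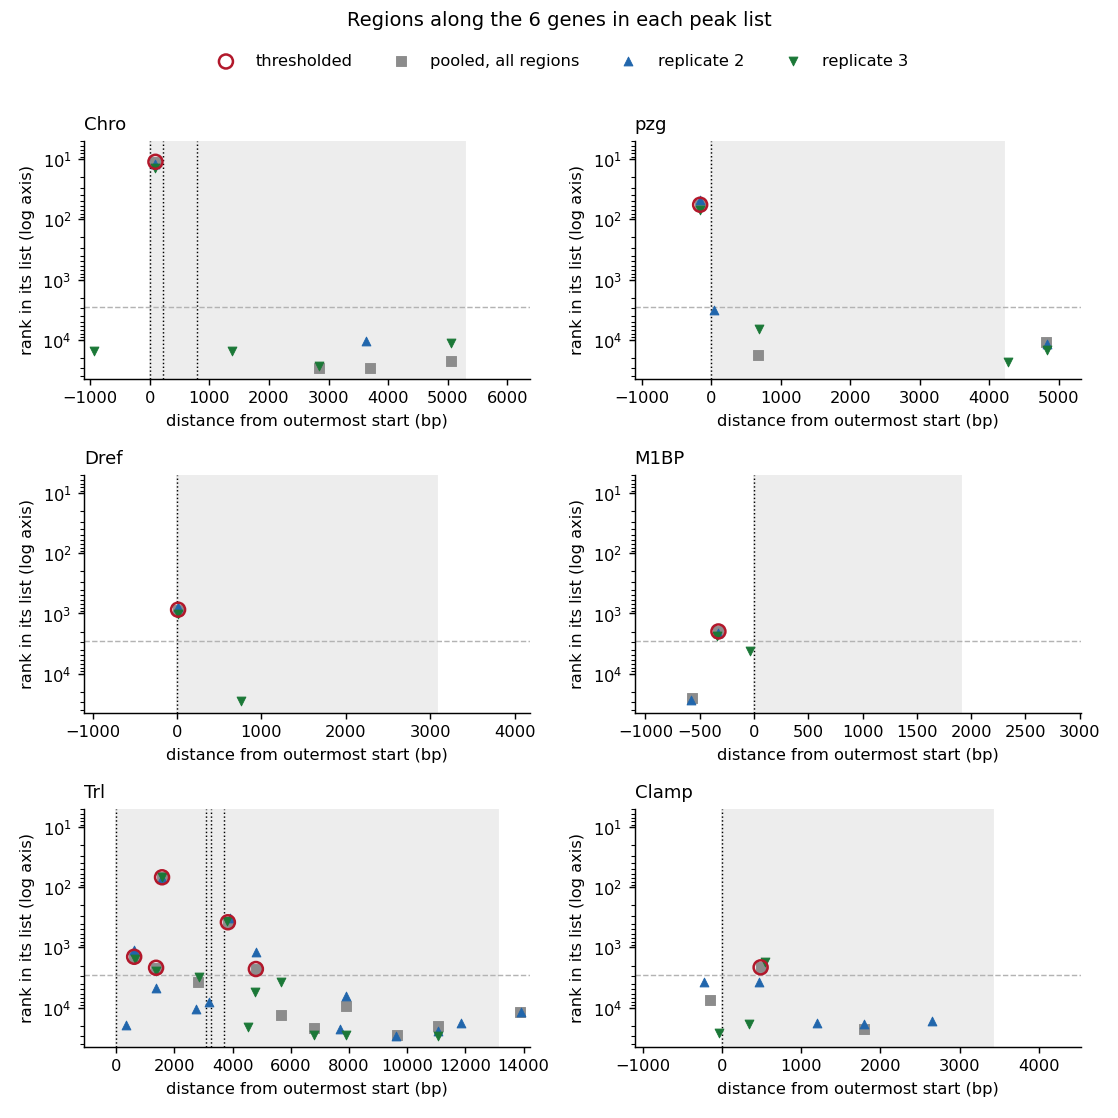
Summits within 1000 bp of each of the 6 genes by distance from the outermost start along the gene (bp) and by rank in their list (log axis, strongest at the top). Red circles are thresholded peaks, squares all pooled regions, triangles the replicates; grey shading is the gene body, dotted lines are annotated starts, and the dashed line is rank 2892. Chro, pzg, Dref and M1BP each have 1 thresholded summit near a start, while Trl has 5 over a span that includes introns.

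Summits of the replicates lay close together at 4 of the start peaks and farther apart at Trl and Clamp. All 6 start peaks had a summit of both replicates within 100 bp, as did 2753 of the 2892 thresholded peaks (95.2%). The thresholded list keeps regions whose order repeats between these replicates, so such agreement follows in part from that choice. Of the 6, 4 had both summits within 50 bp, for which no share over all peaks is given. The replicate summits were 0, 8, 6 and 9 bp apart at Chro, pzg, Dref and M1BP, against a median of 23 bp over the 2753 peaks (quartiles 8 and 48 bp), and 95 and 72 bp apart at Trl and Clamp. These 2 last distances are above the upper quartile. Dividing the signal in replicate 3 by that in replicate 2 gave, over the 2753 peaks, a median log2 ratio of 0.21 (SD 0.52), a level that depends on the unstated scales. The 5 start peaks other than that of Clamp had ratios of −0.14 to 0.14, below that median by less than 1 SD. At Clamp the ratio was 0.78, and 87.8% of peaks had a lower one.

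**Figure D3:**
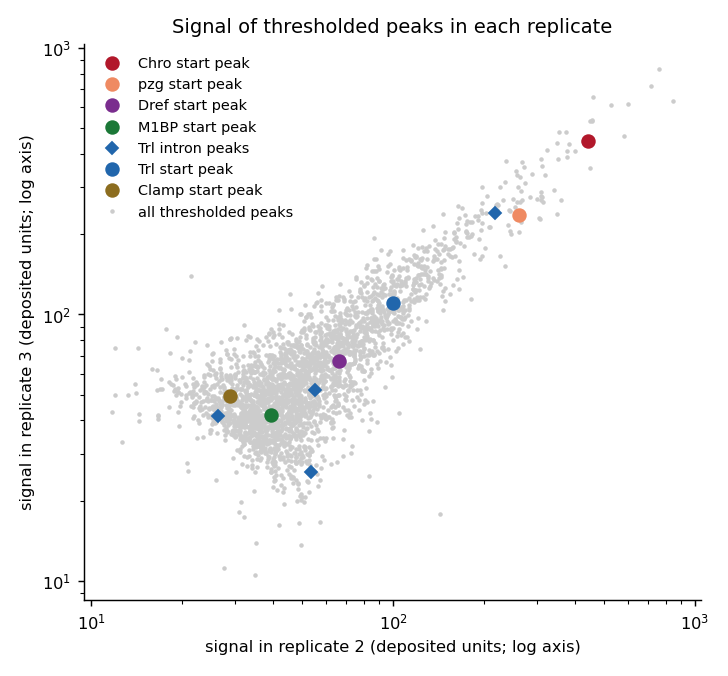
Signal in replicate 3 against signal in replicate 2 (deposited units, log axes) for the start peaks of the 6 genes (coloured circles), the other peaks of Trl (blue diamonds) and the 2753 thresholded peaks with a summit in both replicates (grey dots). Chro, with 443 in replicate 2 and 448 in replicate 3, and the main intron peak of Trl, with 218 and 240.1, lie in the upper arm, and Clamp (28.8 and 49.4) lies in the broad lower cloud.

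Most of these peaks lay at a shared start region, as did the start peaks of most bound genes. The start peaks of Chro, pzg, Dref and M1BP, 4 of the 6, also lay within 500 bp of a protein-coding start on the opposite strand, as did those of 1080 of the 1981 bound genes (54.5%). Which gene of such a pair a peak belongs to cannot be told from position. When each summit was given only to the gene of its nearest start, Chro, Dref, Trl and Clamp kept their peaks, and those of pzg and M1BP went to CG12974 and CG8202. By that rule 1462 protein-coding genes were bound, against 1981. A divergent start within 1000 bp upstream was found at 5 of the 6 genes, against 64.1% of the bound genes and 36.2% of all protein-coding genes. The fifth was Trl, whose divergent neighbour Mgat4a starts 979 bp from the outermost start. The start peak of Trl lay at its innermost start, so it was not at this pair. By signal, the bound genes next above and below each of the 6 were Smg5 and mRpL41 for Chro, Pdrg1 and CG8360 for pzg, CG6833 and RpL37A for Dref, kraken and ced-6 for M1BP, Hr96 and Hsp83 for Trl, and Cap-D2 and Dph1 for Clamp. Their signals were 0.981 to 1.17 times that of the gene they stand beside, a likeness in 1 pooled value only.

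The sequences under the summits were described with a scan of 7-mers over the other 2886 thresholded summits, with the start peaks of the 6 genes left out and the intron peaks of Trl kept in. Of 8192 7-mers, counting each with its reverse complement, 427 were present more often in the window of 50 bp on each side of the summit than in a window of equal size 300 bp away, and 479 less often (exact two-sided McNemar test, Benjamini-Hochberg adjusted). The summit windows had a median GC content of 35.6% against 43.6% in the flanks, and many of the 7-mers that were more frequent are AT-rich. The part of base composition in these calls was not tested. The smallest p-values belonged to a group of overlapping 7-mers. The 7-mer ACTATCG was in 110 windows against 21 flanks (adjusted exact p = 5.44e-13). CTATCGA was in 122 windows against 29 flanks (adjusted exact p = 4.92e-12) and ATCGATA in 164 against 57 (adjusted exact p = 6.67e-11). AACACTG was in 100 windows against 33 flanks (adjusted exact p = 1.86e-06).

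Chro and Dref shared this kind of sequence. Both held CTATCGA, on 1 of its strands, together with CGATAGC, in their summit windows, and CTATCGA was in 4.23% of the other summits. At Chro the match stands within the bases nearest to the summit, printed above as GCTATCGA. At Dref it stands in the space toward RpL13, with ATCGATA overlapping it. The match at Dref has all but the last base of the DRE, the element that the Dref protein binds in flies, and the full DRE was not in this window. Dref also held AACACTG at its summit, printed above on the other strand, and Clamp held AACACTG in the 5′ UTR side of its window, which is not printed. pzg held 3 of the 20 leading 7-mers, all in the 5′ UTR side of its window, while M1BP and the main intron summit of Trl held none of the 20.

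In all, the start windows of Chro and Dref held 27 and 20 of the 427 enriched 7-mers, against a median of 14 (quartiles 9 and 19) in the other summits and 6 in the flanks. Those of pzg, M1BP, Clamp and Trl held 11, 10, 9 and 6, below that median. The main intron summit of Trl held 22, and its GC content was 27.7%. The order of these numbers was not the order of signal, since pzg, with the second strongest start peak of the 6, held fewer than the median summit. The 427 7-mers were chosen as more frequent in those other summits than in those flanks, so the gap between 14 and 6 follows from the choice. The Trl intron summits took part in that choice and the start windows did not, so their numbers are not on an equal footing.

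**Figure D4:**
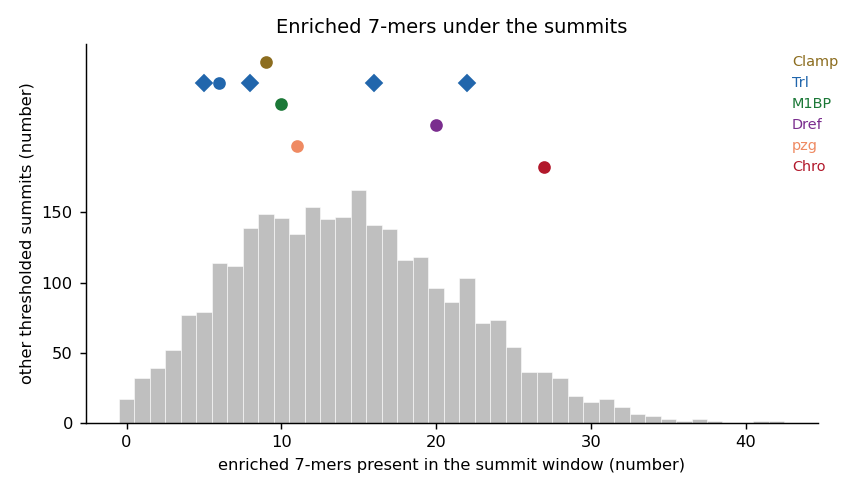
Number of the 427 enriched 7-mers present in the summit window for each thresholded summit at the 6 genes (points above the bars, circles for start peaks and diamonds for other Trl peaks, height without meaning) and for the other 2886 summits (grey bars, number of summits). Chro (27) and Dref (20) lie to the right of the median of 14, and M1BP (10), Clamp (9) and the Trl start peak (6) to its left.

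The elements read by Dref, M1BP, Trl and Clamp were searched on both strands, along with a core of BEAF-32 sites and a core of the initiator. CGATA, the core of sites of the boundary factor BEAF-32, was in the summit windows of Chro, pzg and Dref, 3 of the 6, against 18.8% of all thresholded summits and 23.6% of equal windows around 19252 protein-coding starts. The DRE (TATCGATA, which contains CGATA) was in none of the 6 windows, against 2.70% of summits and 4.48% of starts. The core of motif 1 (GGTCACAC), GAGAG and the GA repeat GAGAGAGA, which contains GAGAG, were likewise in none of the 6, against 1.24%, 12.0% and 1.04% of all summits. TCAGT, a core of the initiator, was in the windows of Dref and Clamp, against 19.2% of summits. With so few windows these counts say only which letters are present.

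In the promoters themselves, taken as 250 bp before to 50 bp after each annotated start, Trl held GAGAGAGA, as did 4.91% of all protein-coding genes. GAGAG was in the promoters of Trl and Clamp, against 36.4% of genes, and Clamp held the core of motif 1, against 8.71% of genes. CGATA was in the promoters of Chro, pzg, Dref and Clamp, 4 of the 6, against 53.1% of all protein-coding genes. The DRE was in none of the 6 promoters, that of Dref included, against 10.2% of genes, and the M1BP promoter had no match to the core of motif 1.

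The same question was asked of 25 genes of proteins known to work with these factors or to bind the same sites, listed by that role. BEAF-32 and Cp190 were already known to be bound in these data when the list was made, so the share is a description. Of the 25 genes, 8 (32%) were bound, against 14.2% of all protein-coding genes, and their start peaks had a median signal of 88.7. The strongest were at lola (signal 214, rank 323), which encodes BTB zinc finger transcription factors, and Cp190 (181, rank 471), which encodes a protein of insulators and interbands. At lola replicate 2 had no summit within 100 bp of it, and replicate 3 ranked it 376. row, a zinc finger gene, followed (104, rank 1367), with E(bx), the gene of the largest NURF subunit and a partner of pzg (94.4, rank 1603).

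The weakest of the bound partners were BEAF-32 (signal 83.0), psq, a GAGA-binding gene (81.1), woc (68.6) and JIL-1, the gene of a histone H3 kinase that works with Chromator (68.4). JIL-1 ranked 2014 in replicate 2 and 6899 in replicate 3 at its start, while its gene body held 4 thresholded summits, the strongest with a signal of 304. Among the other 17 genes, nsl1, of the NSL complex, had a thresholded summit in the gene body only (signal 68.0). The remaining 16 had none at a start or in the body. These included the dosage compensation genes msl-1, msl-2, msl-3, mle and mof, the complex that Clamp helps to recruit, and Trf2, whose product acts with Dref. Of the 17 genes, 14 had a region below the threshold at a start. Such regions are common: a pooled region of any strength lay at a start of 22 of the 25 partner genes, against 53.2% of all protein-coding genes.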

How the data were processed

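ChIP-seq of CG1792-GFP was available from 2 samples, biological replicates 2 and 3. The values were peak lists in dm6. Per the listing that the authors deposited, there is a list of peaks and background regions for each replicate and for both pooled, and an optimal list thresholded by IDR (irreproducible discovery rate), which keeps regions whose order repeats between replicates. The deposited signal value of each region was used as given, and the deposited offset gave the summit. For aligner, caller, filters and versions, nothing is given in the sources used here. The lists hold called regions only, so a place without a region can have weak signal. Each list was made from the replicate alignments and 1 further file whose kind is not stated; the labels name a possible control experiment, which was not analysed here. Lists in dm3 were not used.

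Coordinates are 1-based. All peaks lay within the chromosome lengths of the RefSeq genome of release 6, and genes came from Ensembl release 115 on the 6 major arms. Replicate regions were matched to thresholded summits within 100 bp. The 7-mer scan was tested on simulated windows with the same base composition in summits and flanks. The real summits and flanks differ in GC content, so that test cannot show how composition acts on the calls. The p-values of the scan count summits, not replicates. Python 3.11.15, numpy 2.4.6, pandas 2.3.3, scipy 1.17.1 and matplotlib 3.10.9 were used, with a threshold of 0.05.

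The 6 genes, the 25 partner genes, the elements and the rule for named genes were chosen with earlier results of these data known. Named genes were the 6, genes sharing their summits, bound partners, and the bound genes next above and below each in signal. Beyond that rule, CG42507, Mgat4a, nsl1 and other unbound partners are named. Alternatives were other windows, the nearest start only, overlap of the peak with a start, the 1446 strongest peaks, all pooled regions, and each replicate left out.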

Additional observations from a re-analysis of the deposited data

How the results depend on the processing

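The count of bound genes among the 6 was 4 with a window of 250 bp (Chro, pzg, Dref and Trl), 4 with the nearest start only, 4 with the 1446 strongest peaks, and 6 with 1000 bp or with all pooled regions. It was 3 when the peak interval itself had to overlap a start (Chro, pzg and Dref). With either replicate left out it was 5. Bound genes among all protein-coding genes moved too, from 1981 to 1060 (7.6%) with the 1446 strongest. They numbered 7414 (53.2%) with all pooled regions, a list in which a region at a start is common. Their share was 11.5% with 250 bp, 16.5% with 1000 bp, 10.5% with the nearest start only and 9.92% with overlap. With a replicate left out they numbered 1916 to 1997 (13.7% to 14.3%). Bound partner genes numbered 3 with the 1446 strongest and 22 with all pooled regions, against 8, and 6 to 8 with a replicate left out. The median rank of the start peaks was 623, became 219 with 250 bp, since M1BP and Clamp drop out, and was 552 to 689.5 with a replicate left out. Both replicates had a summit within 50 bp at 4 of the 6 start peaks, and at 5 when the 2892 strongest regions of each were used. The enriched 7-mers numbered 87 with 25 bp on each side, 748 with 100 bp, 191 with the 1446 strongest and 312 to 374 with a replicate left out, against 427. Of the 20 leading ones, 18 were called with 25 bp and with the 1446 strongest, and all 20 in the other 3 settings. At least 1 of the searched elements was in 4 of the 6 start windows, in 3 with 25 bp on each side and in 4 with 100 bp. With 50 bp on each side these were CGATA or TCAGT only, which were in 18.8% and 19.2% of all thresholded summits. The share of all summits with at least 1 of the elements is not given here, so the count has no background beside it. The depth of the libraries is unknown, and no control library was analysed here, so a weak region such as that at Clamp has no measured background beside it.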
